A study of Mus musculus with 12 samples.

Results

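Loss of Eif3h in the Apc-deficient small intestine of mice was examined by comparing 4 RNA sequencing libraries labelled Apc Eif3h with 4 labelled Apc, which are 8 of the 12 libraries of the series. Libraries were taken by sample title, and every gene that passed a filter on low counts was tested. The Apc group carried VilCreER and floxed Apc alleles (VilCreER Apc fl/fl), and the Apc Eif3h group carried the same alleles and floxed Eif3h (VilCreER Apc fl/fl Eif3h fl/fl). Both groups were labelled day 4, so all 8 libraries come from Apc-deficient tissue at a matched labelled time. The other 4 libraries are wild type (WT), labelled day 7. They show the level of a gene where Apc is intact, and they also enter the fit, through the filter, the scaling and the estimate of spread.

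Tamoxifen was injected into the peritoneum at 80 mg/kg, 2 times 24 hours apart, to start Cre recombination. The protocol text gives a harvest after 7 days for all samples, whereas the sample labels give day 4 for both Apc-deficient groups. All Apc Eif3h libraries and 3 of the Apc libraries are labelled male, and Apc replicate 1 is labelled female, as is 1 of the 4 WT libraries. Age is not given in the sources used here. The villin promoter restricts Cre to gut epithelium, while the RNA came from whole pieces of small intestine, so muscle, stroma and immune cells keep their Apc and Eif3h. In such bulk tissue fewer cells of a type and less RNA per cell cannot be told apart. Whether each replicate was its own mouse is not stated in the labels. The p-values therefore describe only how these libraries vary, and some of that variation may be technical.

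Eif3h encodes subunit h of eIF3, the multi-subunit factor that joins the small ribosomal subunit and helps to load it onto mRNA when translation starts. Apc is a scaffold of the complex that marks beta-catenin for destruction, and its loss turns on Wnt target genes in crypt cells, among them stem cell genes and genes for ribosome production. Messages for ribosomal proteins, elongation factors and the host transcripts of small nucleolar RNAs (snoRNAs) share a stretch of pyrimidines at their 5′ end, the TOP motif, which ties their translation and stability to growth signals. When initiation is impaired through eIF2, the transcription factor ATF4 and its partners are made in place of most other proteins and switch on amino acid and stress genes.

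The targeted gene was low in every Apc Eif3h library. Eif3h (GRCm38, chr15:51786558-51865523, minus strand) stood at 168, 164, 158 and 175 CPM (counts scaled to a common library size) in Apc libraries 1 to 4, and at 28.3, 43.1, 54.6 and 25.9 CPM in Apc Eif3h libraries 1 to 4. The groups did not overlap, and library 3 of Apc Eif3h kept the highest level. The mean fell from 166 ± 7.01 to 38 ± 13.4 CPM (SD, n = 4 each), a log2 fold change of -2.13 (SE 0.19) with an adjusted p of 0.000405 in edgeR's quasi-likelihood test with Benjamini-Hochberg adjustment, and 22.8% of the Apc level remained. Gene counts do not separate the floxed exons from the rest of the transcript. Apc itself stood at 114 ± 6.96 CPM in Apc and 105 ± 12 CPM in Apc Eif3h (adjusted p 0.427), which is no check of its deletion for the same reason. Xist, the transcript that silences the second X chromosome of females, was at 701 CPM in Apc replicate 1 and between 0.201 and 1.31 CPM in the other 7 libraries, which matches their labelled sex.

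Library totals ran from 10483112 to 21298301 counts over the 8 libraries. Epithelial, muscle and stromal markers were present in all of them: Vil1, an actin bundler of the brush border, lay between 1129 and 1950 CPM, Epcam, an epithelial adhesion molecule, between 1148 and 1789 CPM, and Myh11, the myosin of smooth muscle, between 294 and 383 CPM. Apc Eif3h replicate 2 stood apart. It held 462 CPM of Ighm, the heavy chain of IgM, and 83.8 CPM of Cd79a, part of the B cell receptor, against at most 12.5 and 3.37 CPM in any of the other 7. Ptprc, the common leukocyte antigen CD45, was at 163 CPM there and between 21.5 and 35.5 CPM elsewhere.

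Of 17394 genes tested, 1226 (7.05%) were called at an adjusted p below 0.05, with 743 (4.27%) higher and 483 (2.78%) lower in Apc Eif3h than in Apc. At an unadjusted p below 0.05 there were 4095 genes. With only the 8 Apc and Apc Eif3h libraries in the fit, 977 genes were called (586 higher and 391 lower). Of the 1226 called genes, 1117 had groups that did not overlap in CPM, so lack of overlap is common to most calls. The share without overlap over all genes tested was not counted, so lack of overlap is given below only as a description. Changes of more than 2-fold were on the lower side more often, with 77 genes higher and 138 lower. These counts were 26 and 65 without Apc replicate 3, 41 and 84 without Apc Eif3h replicate 2, 60 and 89 without Apc Eif3h replicate 4, 137 and 181 without Apc Eif3h replicate 3, and within 1.5 times without each of the others. Over all genes tested, the log2 fold changes had a median of -0.00185. Higher calls made up 60.6% of all calls with TMM scaling and 49.8% (485 higher and 488 lower) when only library totals were used, so the split depends on scaling. In Apc against WT, which shares the Apc libraries, 51.8% of the same genes were called.

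**Figure D1:**
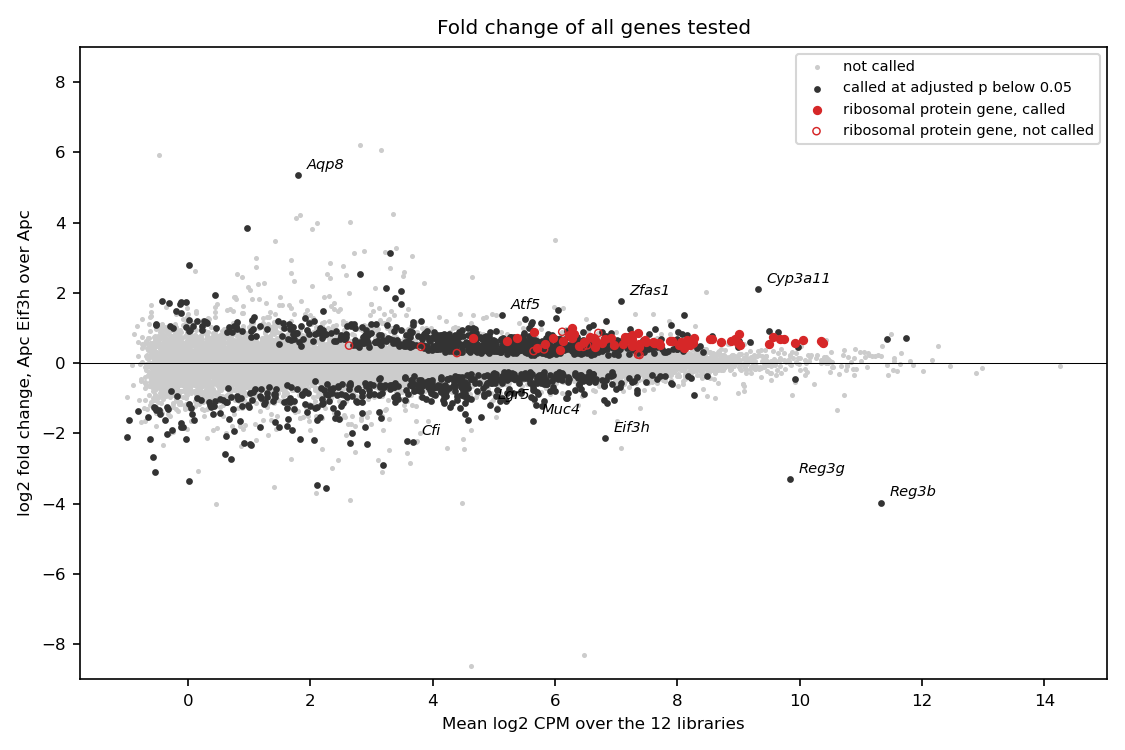
Each point is 1 of the 17394 genes tested, placed by its mean log2 CPM over 12 libraries (horizontal) and its log2 fold change in Apc Eif3h over Apc (vertical). The 71 called ribosomal protein genes (filled red) form a band near their median of 0.609, while Eif3h, Reg3b, Reg3g, Cfi and Muc4 lie far below 0 and Aqp8, Cyp3a11 and Zfas1 far above it.

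The number of calls rested on single libraries. Without Apc replicate 3 only 406 genes were called (242 higher and 164 lower), without Apc Eif3h replicate 3 there were 1767 (1152 and 615), and without any of the other 6 between 661 and 781. Apc Eif3h replicate 3, which kept the most Eif3h, also had the lowest weight of the 12 libraries when limma weighted them by quality (0.487, against 2.06 for Apc Eif3h replicate 4). Genes described below as called in all 16 alternatives kept an adjusted p below 0.05 under each of the 8 other model settings and with each of the 8 libraries left out. Where a call did not hold, the highest adjusted p among the 8 leave-one-out fits is given.

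**Figure D2:**
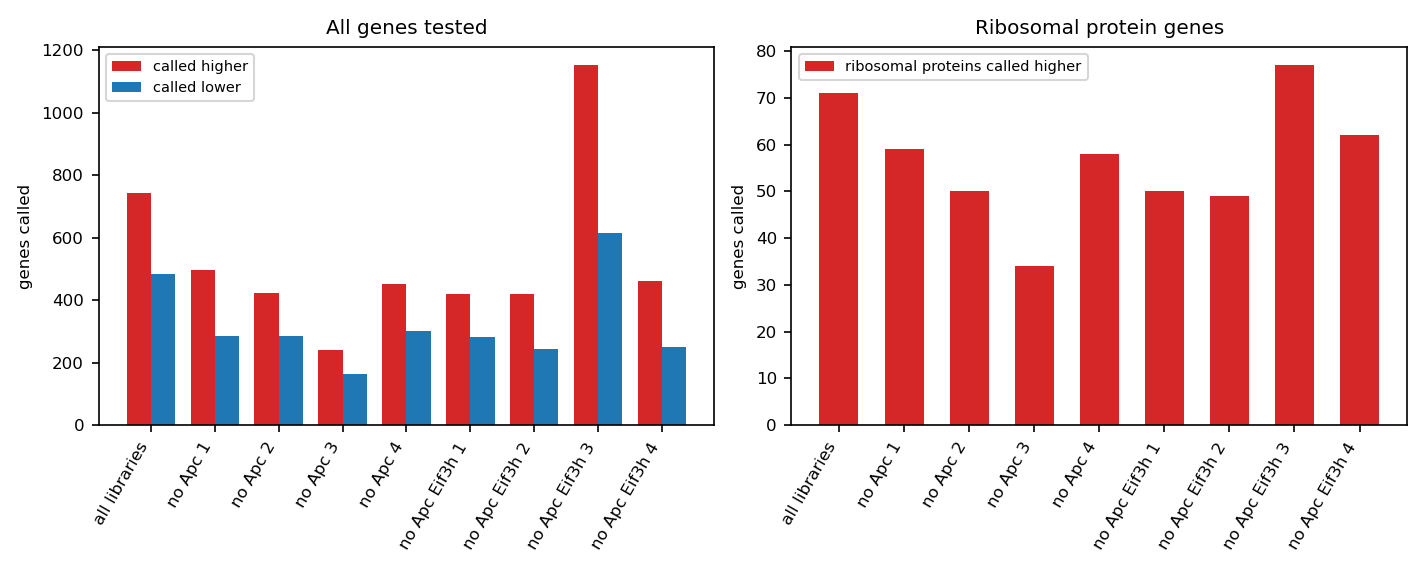
Bars give the genes called at an adjusted p below 0.05 with all libraries and with each of the 8 Apc and Apc Eif3h libraries left out, for all genes (left, higher in red and lower in blue) and for the 82 ribosomal protein genes (right). The lowest bars are those without Apc replicate 3 (242, 164 and 34) and the highest those without Apc Eif3h replicate 3 (1152, 615 and 77).

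No other subunit of eIF3 was called lower. All 13 had log2 fold changes above 0, and 2 were called higher: Eif3g, which binds RNA and helps scanning, from 109 ± 12.6 to 151 ± 19.7 CPM (log2 fold change 0.47, adjusted p 0.0255), and Eif3f, which like Eif3h carries an MPN domain, from 203 ± 17.1 to 269 ± 36.8 CPM (0.41, adjusted p 0.0404). Neither call held without Apc replicate 3, where the adjusted p was 0.0914 for Eif3g and 0.133 for Eif3f, and 5 and 6 of the 8 leave-one-out fits lost them. Eif3e, a core subunit, stood at 145 ± 9.98 CPM in Apc and 147 ± 10.7 CPM in Apc Eif3h, and Eif3a, the largest, at 263 ± 18.7 and 322 ± 53.3 CPM, and neither was called. Over the 14 subunits the median log2 fold change was 0.215. Over all genes tested the median was -0.00185, and 4.27% were called higher.

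Among 36 other initiation factors, 6 were called higher and 2 lower, with a median of 0.124, against 4.27% higher and 2.78% lower over all genes. In the leave-one-out fits 3 (without Apc replicate 3) to 12 (without Apc Eif3h replicate 3) were called higher. Lower calls numbered 1 without Apc replicate 1, Apc replicate 3, Apc Eif3h replicate 1 or Apc Eif3h replicate 2, and 2 or 3 without the others. The 3 called factors of start codon choice were Eif1, Eif1b and Eif5. Eif1, which keeps the scanning ribosome open until it meets a start codon, was at 150, 157, 128 and 164 CPM in Apc and 324, 337, 238 and 279 CPM in Apc Eif3h. These groups did not overlap (log2 fold change 0.98, SE 0.13, adjusted p 0.00266), and the Apc mean of 150 CPM was the same as that of WT. Eif5, the partner of Eif1 that triggers GTP hydrolysis at the start codon, rose from 332 ± 19.4 to 567 ± 83.7 CPM (log2 fold change 0.77, adjusted p 0.00304). Eif6, which keeps the large ribosomal subunit from joining too early, rose from 217 ± 17 to 377 ± 33.5 CPM (0.79, adjusted p 0.00771). Eif4e3, a cap-binding protein, fell from 19 ± 1.68 to 12.7 ± 0.812 CPM (-0.58, adjusted p 0.00605). Eif4ebp3, the other factor called lower, fell from 4.59 ± 1.48 to 2.07 ± 0.385 CPM (-1.11, adjusted p 0.0248). It was not called in the leave-one-out fits with 1 lower call. Eif1, Eif5, Eif6 and Eif4e3 were called in all 16 alternatives, while Eif1b lost its call without Apc replicate 3 (adjusted p 0.0597).

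Ribosomal protein genes were the list with the most calls. Of 82 tested, 71 were called higher and 0 lower, all 82 had a fold change above 0, and the median was 0.609 on the log2 scale, against 4.27% called higher and a median of -0.00185 over all genes tested. The large subunit gave 41 of 48 and the small subunit 30 of 34. Together they took 2.11 ± 0.191% of all counts in Apc and 3.18 ± 0.563% in Apc Eif3h, beside 1.16 ± 0.0646% in WT. Summed over the 82 genes, libraries 1 to 4 held 22610, 20200, 18840 and 22750 CPM in Apc and 36170, 36500, 24750 and 29790 CPM in Apc Eif3h. The groups did not overlap, and Apc Eif3h replicate 3 was the lowest of its group. The count of higher calls was 34 without Apc replicate 3 and between 49 and 77 in the other leave-one-out fits. It was 61 with library totals only, 70 with RLE scaling and 61 with only the 8 Apc and Apc Eif3h libraries in the fit.

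Rps6, the small subunit protein phosphorylated by S6 kinase, was at 75.1, 64.9, 55.9 and 71.4 CPM in Apc and 129, 124, 106 and 104 CPM in Apc Eif3h. No library of one group reached the other (log2 fold change 0.80, SE 0.11, adjusted p 0.00266). Rpl35, a protein near the exit of the large subunit's tunnel, had the largest change of the 71, from 62.5 ± 8.75 to 125 ± 26.1 CPM (log2 fold change 1, SE 0.15, adjusted p 0.00443). Rpl23 rose by 0.65, Rps4x by 0.69, Rpl28 by 0.68 and Rps19 by 0.73 on the log2 scale, with adjusted p between 0.00459 and 0.0063. All 6 were called in all 16 alternatives. Short reads of 36 cycles cannot be placed firmly between these genes and their many processed copies, and how reads with several matches were counted is not given in the sources used here.

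The start sites of some of these genes are shown because the TOP motif is a pyrimidine run there. Each window below holds 15 bases before and 15 from the RefSeq start (GRCm38.p6), read 5′ to 3′ on the gene's strand, and capitals mark a run of at least 6 C or T bases within 4 bases of the start. Rpl23 and Zfas1 have no such run, and neither do Rps4x, Rps19 and the first RefSeq start of Gas5, which are not shown.
Rps6 (chr4:86857353-86857382, minus): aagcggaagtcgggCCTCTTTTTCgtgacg
Rpl35 (chr2:39005117-39005146, minus): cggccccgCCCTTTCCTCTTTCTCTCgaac
Rpl28 (chr7:4792950-4792979, plus): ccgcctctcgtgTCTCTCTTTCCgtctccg
Rpl23 (chr11:97782425-97782454, minus): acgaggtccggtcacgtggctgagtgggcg
Gas5, second RefSeq start (chr1:161035151-161035180, plus): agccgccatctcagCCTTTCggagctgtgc
Zfas1 (chr2:167062919-167062948, plus): ttgactgcgccccgggcggccgcaggtctc

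A run of this kind was found at 32 of 61 ribosomal protein genes with a promoter entry (52.5%), at 7 of 12 snoRNA host genes (58.3%) and at 23.1% of the 11706 tested genes with an entry. Only the strand of the gene was searched. Of the ribosomal protein genes called higher, 28 of 55 held the run (50.9%), and of those not called 4 of 6 (66.7%). Outside the ribosomal proteins, the genes called higher held it at 23.6% and the genes called lower at 25.2%, both near the share of all genes. The minimum length was chosen after the values had been seen, from lengths of 6, 8 and 10. With 8 bases the shares were 41% of ribosomal protein genes, 33.3% of snoRNA host genes, 11.5% of all genes and 10.8% of the other raised genes. With 10 bases they were 31.1%, 8.33%, 6.27% and 6.77%, so that the share of snoRNA host genes (1 of 12) was then near that of all genes.

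Of 14 snoRNA host genes, whose introns yield the guides for rRNA modification, 6 were called higher and 1 lower, with a median of 0.545. Over all genes tested 4.27% were called higher and 2.78% lower, with a median of -0.00185. Zfas1 (GRCm38, chr2:167062934-167065862, plus strand) had the smallest adjusted p of all genes tested, and stood at 82.2, 74.1, 77.9 and 85.8 CPM in Apc and 346, 288, 201 and 257 CPM in Apc Eif3h. Every Apc Eif3h library held more than any Apc library (log2 fold change 1.77, SE 0.14, adjusted p 0.00021). Zfas1 overlaps the 5′ end of Znfx1 on the other strand, and without a stated strand setting reads there cannot be told apart. Znfx1, named for this overlap after its values were seen, stood at 98.6 ± 6.38 CPM in Apc and 89.4 ± 4.79 CPM in Apc Eif3h (adjusted p 0.504). Gas5, a growth arrest transcript that holds many snoRNAs, rose from 233 ± 15.7 to 426 ± 82.5 CPM (log2 fold change 0.87, adjusted p 0.00407), and Snhg6 from 27.8 ± 1.59 to 47.4 ± 7.76 CPM (0.77, adjusted p 0.0047). Zfas1, Gas5 and Snhg6 were called in all 16 alternatives. Snhg18 was the gene called lower, from 21.6 ± 3.39 to 16.3 ± 1.19 CPM, a call lost in 6 of 8 leave-one-out fits (adjusted p up to 0.143).

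**Figure D3:**
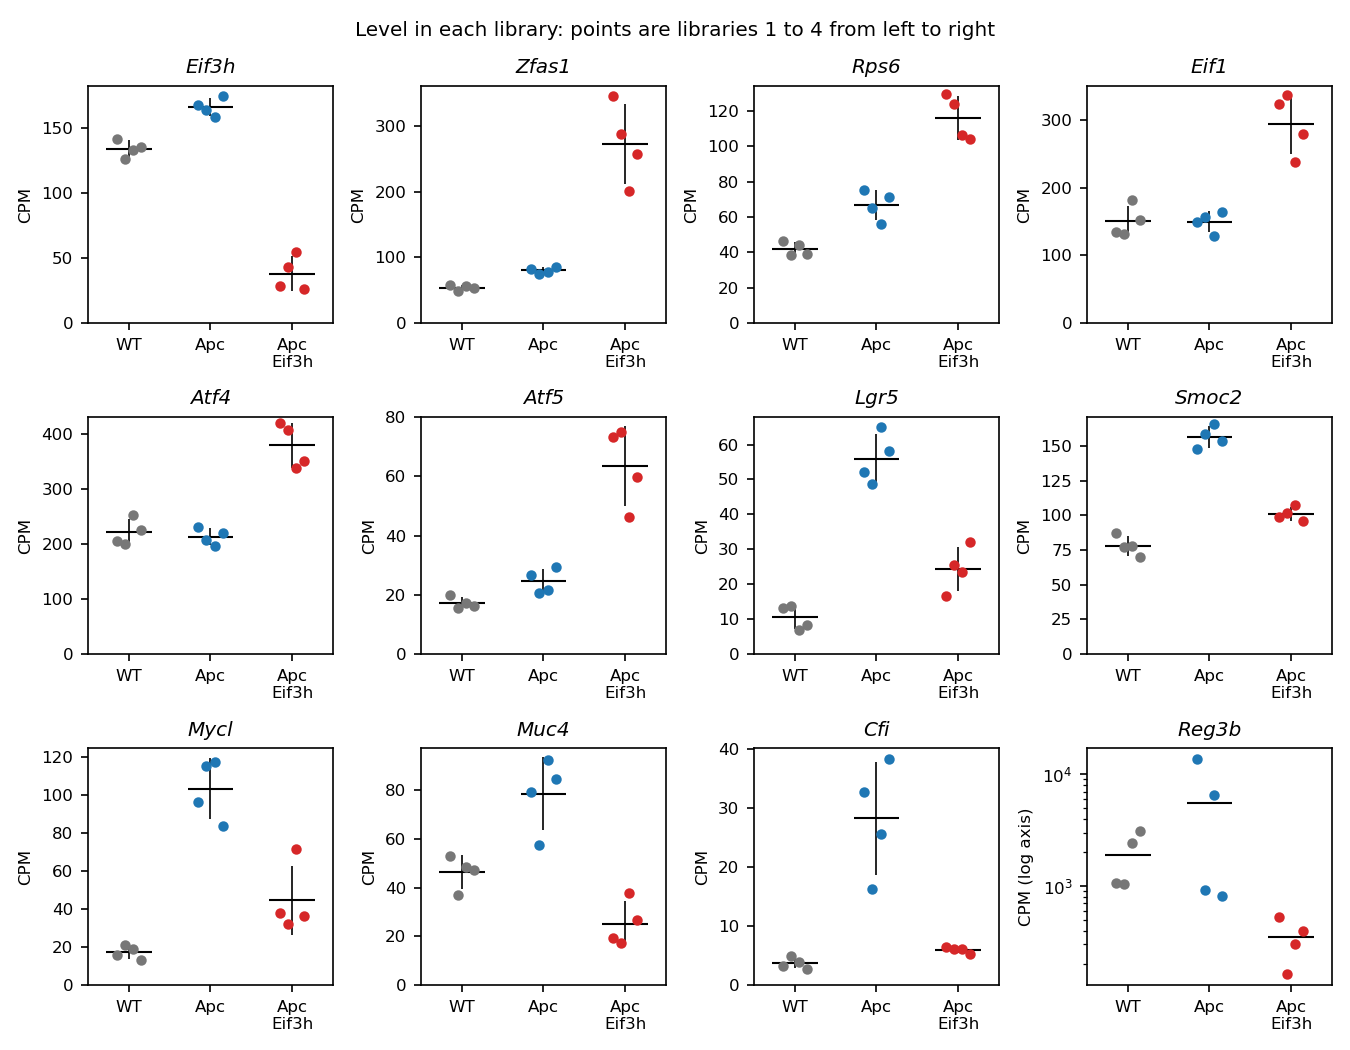
CPM of 12 genes in each library of WT (grey), Apc (blue) and Apc Eif3h (red), with libraries 1 to 4 from left to right, a bar at the mean and a line of 1 SD on either side (no SD for Reg3b, whose axis is logarithmic). Eif3h is low in the 4 Apc Eif3h libraries, Zfas1, Rps6, Eif1, Atf4 and Atf5 are higher there than in all Apc libraries, and Lgr5, Smoc2, Mycl, Muc4, Cfi and Reg3b are lower than in all Apc libraries.

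Other parts of the translation machinery were called less evenly. Elongation factors gave 4 of 6 higher: Eef1b2, the exchange factor of eEF1A, rose from 617 ± 53.6 to 1166 ± 180 CPM (log2 fold change 0.92, adjusted p 0.00295) and Eef1g, another subunit of that complex, from 239 ± 27.2 to 384 ± 50 CPM (0.68, adjusted p 0.00808), both called in all 16 alternatives. Tpt1, a TOP message outside the ribosome, rose from 442 ± 29.4 to 688 ± 46.8 CPM (0.64, adjusted p 0.0079), also in all 16. Ribosome biogenesis genes gave 4 of 58 higher and 0 lower, with 55 of 58 fold changes above 0 and a median of 0.329, a share of calls near the 4.27% of all genes. That count was 0 without Apc replicate 3, 1 without Apc replicate 2, Apc Eif3h replicate 1 or Apc Eif3h replicate 2, 2 without Apc Eif3h replicate 4, and 27 without Apc Eif3h replicate 3. Polr1c, a subunit shared by RNA polymerases I and III, rose from 49 ± 3.98 to 70.2 ± 11.1 CPM (0.52, adjusted p 0.0189, and 0.0716 without Apc replicate 3). Mitochondrial ribosomal proteins gave 5 of 41 higher with a median of 0.189, and the count was between 0 (without Apc replicate 3) and 3 without any library other than Apc Eif3h replicate 3.

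Processed pseudogenes, which are copies of messages inserted back into the genome, gave 155 higher and 9 lower calls among 1420 tested, against 542 higher and 436 lower among 14189 protein-coding genes. Their counts and those of the ribosomal protein genes may hold the same reads, and this was not tested. Among protein-coding genes outside the ribosomal proteins, split into 5 equal bins by transcript length after the values were seen, the median log2 fold change was 0.0146 in the bin of shortest transcripts and -0.0664 in that of the longest, with 3.89% and 2.3% called higher. Transcript length and RNA quality were not examined further, and their part in the results was not tested.

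ATF4 and stress response genes gave 5 higher and 2 lower calls among 37 tested, with a median of 0.209. Over all genes 4.27% were called higher and 2.78% lower. Of the 7 transcription factors on the list 3 were called higher. Atf4, the central factor of the response, was at 230, 207, 196 and 219 CPM in Apc and 419, 408, 339 and 350 CPM in Apc Eif3h, without overlap (log2 fold change 0.83, SE 0.10, adjusted p 0.00172). Its Apc mean of 213 CPM lay beside 221 CPM in WT. Atf5, a related factor, was at 26.6, 20.6, 21.5 and 29.4 CPM in Apc and 73.3, 75, 46.3 and 59.6 CPM in Apc Eif3h, again without overlap (1.37, SE 0.16, adjusted p 0.00167). Ddit3, which encodes CHOP, rose from 16 ± 1.52 to 25.9 ± 4.94 CPM (0.70, adjusted p 0.0123). Atf4, Atf5 and Ddit3 were called in all 16 alternatives.

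The enzymes and transporters of this list were less firm. Mthfd2 of mitochondrial one-carbon metabolism rose from 44.2 ± 9.75 to 74.8 ± 18.6 CPM (log2 fold change 0.76, adjusted p 0.031) and Psph, the last enzyme of serine synthesis, from 12.6 ± 3.33 to 22.6 ± 6.79 CPM (0.85, adjusted p 0.0493). Their groups overlapped, and their calls were lost in 5 and 7 of the 8 leave-one-out fits, with adjusted p up to 0.108 and 0.152 without Apc replicate 3. Asns, asparagine synthetase, named after its values were seen, was at 65.5 ± 15.6 and 88.2 ± 23.1 CPM (adjusted p 0.207). Ddit4, an inhibitor of mTORC1, fell from 77.9 ± 24 to 45.8 ± 4.35 CPM (-0.77, adjusted p 0.0226, and 0.0588 without Apc Eif3h replicate 4), and Vldlr, a lipoprotein receptor, from 7.61 ± 1.82 to 3.9 ± 0.728 CPM (-0.97, adjusted p 0.0195), a call lost in 3 of 8 leave-one-out fits (up to 0.0528 without Apc Eif3h replicate 2). The count of higher calls in the whole list was 3 without Apc replicate 2, Apc replicate 3, Apc Eif3h replicate 1 or Apc Eif3h replicate 4, and 10 without Apc Eif3h replicate 3. Of 26 genes of the unfolded protein response, Ddit3 alone was called in either direction, against 4.27% higher and 2.78% lower over all genes.

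Among 31 p53 targets and regulators, 6 were called higher and 0 lower, with a median of 0.156, against 4.27% higher over all genes. Ccng1, a cyclin induced by p53, was at 129, 100, 87.5 and 142 CPM in Apc and 197, 187, 150 and 189 CPM in Apc Eif3h, without overlap (log2 fold change 0.66, adjusted p 0.0183). Bax, which opens the mitochondrial outer membrane, rose from 55.8 ± 7.32 to 77.9 ± 12.1 CPM (0.48, adjusted p 0.0293), and Cdkn1a, the inhibitor p21, from 159 ± 18.6 to 217 ± 11.3 CPM (0.45, adjusted p 0.0482). The Cdkn1a call was lost in all 8 leave-one-out fits, that of Bax in 4 (adjusted p up to 0.149 and 0.0974 without Apc replicate 3) and that of Ccng1 without Apc replicate 2 and Apc replicate 3 (0.0551), and the list had 0 calls without Apc replicate 2 or Apc replicate 3 and 1 or 2 without Apc replicate 1 or Apc Eif3h replicate 1, 2 or 4. Trp53 and Mdm2, named after their values were seen, were not called (adjusted p 0.503 and 0.54). Of 32 DNA replication genes 0 were called in either direction by edgeR, DESeq2 or limma with sample weights, with a median of -0.0731 and 1 gene in each direction at an unadjusted p below 0.05. Pcna, the replication clamp, stood at 140 ± 19 and 130 ± 9.06 CPM. In mitosis 2 of 28 were called lower, against 2.78% of all genes: Cenpf, a kinetochore protein, from 33 ± 2.67 to 20.4 ± 4.07 CPM (-0.69, adjusted p 0.0202), and Nusap1, a spindle protein, from 45.1 ± 4.3 to 30.5 ± 3.61 CPM (-0.57, adjusted p 0.0188). Both were lost without Apc replicate 3 (adjusted p 0.0714 and 0.0653) and without Apc Eif3h replicate 2, and Nusap1 also without Apc replicate 4.

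**Figure D4:**
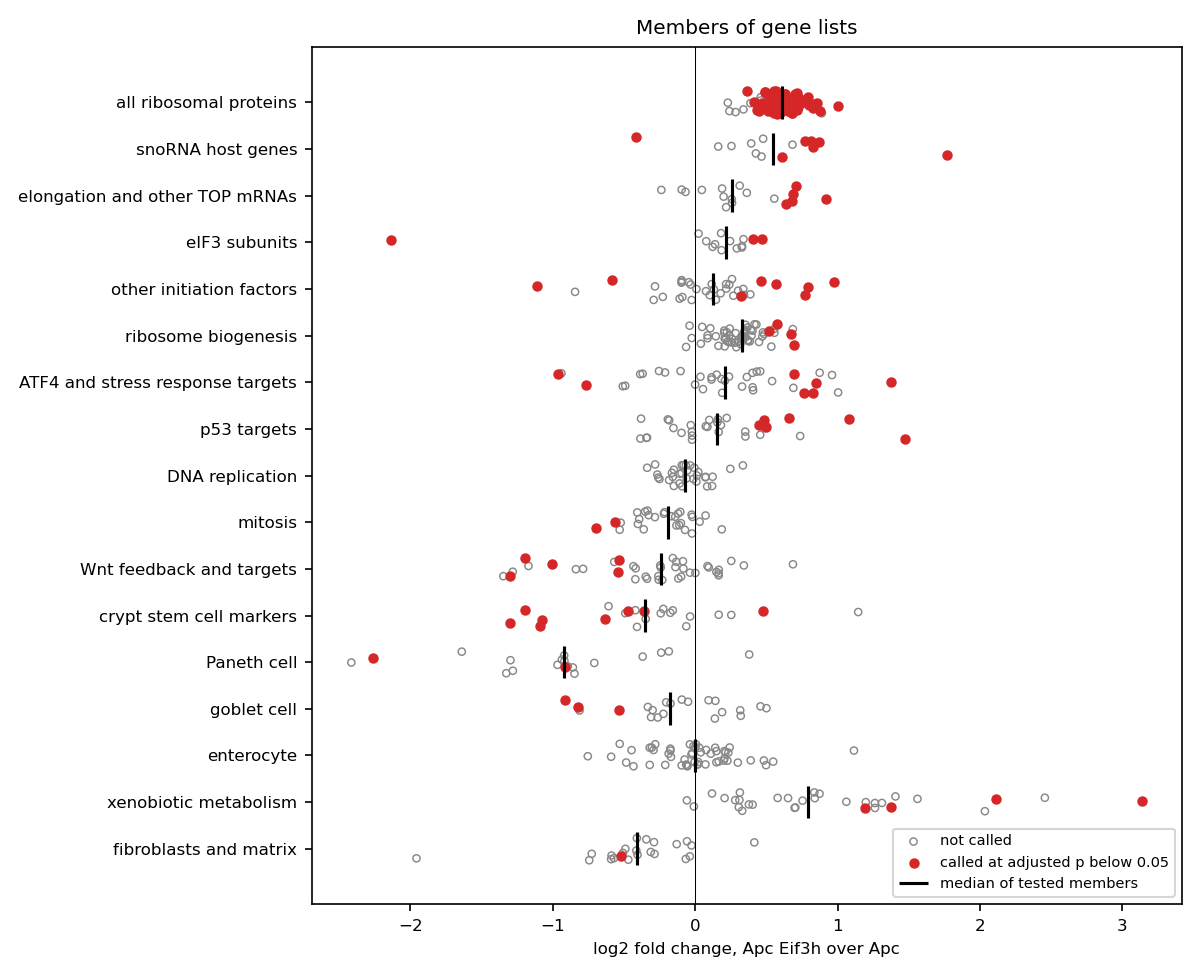
Each point is 1 tested member of a gene list, placed by its log2 fold change in Apc Eif3h over Apc, with called genes filled red and the median as a black bar. Ribosomal proteins lie above 0 with a median of 0.609, DNA replication genes and enterocyte genes lie around 0 with 0 calls, and stem cell markers have a median of -0.354 with 7 calls below 0 and 1 above.

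Crypt stem cell markers were mostly called lower where they were called. Of 22 tested, 7 were called lower and 1 higher, with a median of -0.354, against 2.78% called lower over all genes. Fold changes were below 0 for 18 and above 0 for 4. Ascl2, a stem cell marker given with the Wnt targets below, went the other way without a call, from 36 ± 4.31 to 42.9 ± 8.2 CPM (adjusted p 0.369). Lgr5, a receptor for R-spondins that marks crypt base stem cells, was at 52, 48.7, 65 and 58 CPM in Apc and 16.7, 25.6, 23.5 and 32 CPM in Apc Eif3h. The groups did not overlap (log2 fold change -1.19, SE 0.22, adjusted p 0.00974). In WT the mean was 10.6 CPM, and Apc was above WT by 2.40 on the log2 scale, so Apc Eif3h lay between them. Smoc2, a matrix protein of the crypt base, was at 148, 158, 166 and 154 CPM in Apc and 98.9, 102, 107 and 96.1 CPM in Apc Eif3h (-0.63, SE 0.08, adjusted p 0.00171). Lgr5 and Smoc2 were called in all 16 alternatives. Rgmb, a BMP co-receptor, fell from 148 ± 9.27 to 106 ± 3.88 CPM (-0.47, adjusted p 0.0175), and Tnfrsf19, which encodes TROY, from 65.5 ± 17 to 26.7 ± 8.78 CPM (-1.30, adjusted p 0.0181). Both were lost without Apc replicate 3 (0.0648 and 0.0674) and without Apc Eif3h replicate 4. Bmi1, a Polycomb protein, was the gene called higher, from 30.4 ± 2.62 to 42.2 ± 5.63 CPM (0.47, adjusted p 0.0203), a call lost in 4 of 8 leave-one-out fits (up to 0.0757 without Apc replicate 3). Counts of lower calls were 3 to 7 in the leave-one-out fits, with 3 without Apc replicate 3 and 3 without Apc Eif3h replicate 4.

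Wnt targets gave calls on the lower side. Of 39 tested, 5 were called lower and 0 higher, against 2.78% lower over all genes, with a median of -0.241, and Lgr5 and Tnfrsf19 are on this list too. Nkd1, a feedback inhibitor of Dishevelled, fell from 59.7 ± 12.1 to 29.8 ± 13.1 CPM (log2 fold change -1, adjusted p 0.0254) with overlapping groups, since Apc Eif3h replicate 3 held 49 CPM and Apc replicate 4 held 47.6 CPM. Its call was lost in 5 of 8 leave-one-out fits (up to 0.0906 without Apc replicate 3). Prom1, a membrane protein of crypt cells, fell from 144 ± 18.7 to 98.9 ± 13.6 CPM (-0.54, adjusted p 0.0198) and Zfp503 from 45.8 ± 5.52 to 31.6 ± 1.55 CPM (-0.54, adjusted p 0.0362), calls lost in 4 and 6 of the 8 leave-one-out fits (up to 0.0671 and 0.102 without Apc replicate 3). Axin2, Myc and Ascl2, widely used targets of beta-catenin named after their values were seen, stood at 358 ± 30.3, 94.2 ± 17.3 and 36 ± 4.31 CPM in Apc and at 401 ± 77.8, 91.8 ± 22 and 42.9 ± 8.2 CPM in Apc Eif3h. None of the 3 was called (adjusted p 0.553, 0.933 and 0.369). The count of lower calls ran from 1 without Apc replicate 3 to 10 without Apc Eif3h replicate 3, and was 2 or 3 without any of the other 6 libraries except Apc replicate 4.

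**Figure D5:**
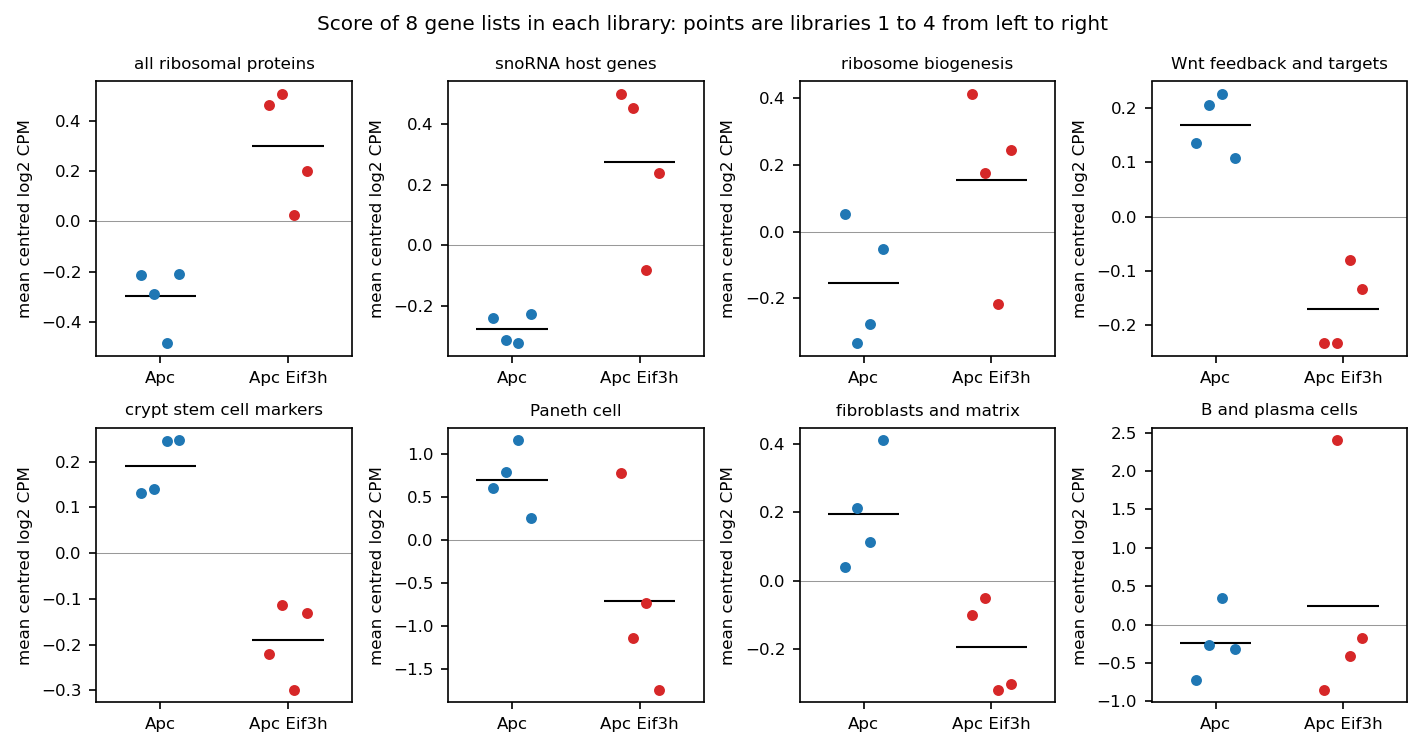
The mean over a list's tested members of log2 CPM, centred per gene over the 8 libraries, is plotted for 8 lists in Apc (blue) and Apc Eif3h (red), with libraries 1 to 4 from left to right and a bar at the group mean. Ribosomal protein, snoRNA host gene, Wnt target, stem cell and fibroblast scores do not overlap between groups. Apc Eif3h replicate 2 stands apart in B and plasma cell markers with a score of 2.40.

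Among MYC family genes and their partners 4 of 14 were called lower and 0 higher, against 2.78% lower and 4.27% higher over all genes. Mycl, which encodes L-MYC, was at 96.5, 115, 118 and 83.7 CPM in Apc and 37.7, 32.4, 71.5 and 36.5 CPM in Apc Eif3h. The groups did not overlap, with Apc Eif3h replicate 3 nearest to Apc (log2 fold change -1.21, SE 0.23, adjusted p 0.0107). Mycl was called in all 16 alternatives. It was higher in Apc than in WT, by 2.58 on the log2 scale. Mycn fell from 2.5 ± 0.542 to 1.4 ± 0.405 CPM, a call lost in 6 of 8 leave-one-out fits (adjusted p up to 0.104 without Apc replicate 4). Of 16 textbook MYC targets 2 were higher and 0 lower, with a median of 0.359. Srm, spermidine synthase, rose from 44.3 ± 10.1 to 88.2 ± 27.6 CPM with overlapping groups (1, adjusted p 0.0226), a call lost in 4 of 8 leave-one-out fits (up to 0.082 without Apc replicate 3).

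Of 13 Notch pathway genes 1 was called higher and 2 lower, of 16 BMP pathway genes 0 were called, and of 16 mesenchymal Wnt and niche signals 1 was called higher and 2 lower, against 4.27% higher and 2.78% lower over all genes. Dll4, a Notch ligand of crypt cells and endothelium, was at 24, 21.6, 22.6 and 24.1 CPM in Apc and 13.5, 13.3, 15.5 and 10.9 CPM in Apc Eif3h, without overlap (log2 fold change -0.80, SE 0.12, adjusted p 0.0037). Endothelial markers were lower beside it, with 13 of 15 fold changes below 0, a median of -0.278 and a summed level of 301.6 to 366.8 CPM in Apc and 256.6 to 333.5 CPM in Apc Eif3h. None of the 15 was called by edgeR, 3 were lower at an unadjusted p below 0.05, DESeq2 called 2 and limma with sample weights 3 lower, and their part in the Dll4 result was not tested. Jag1, another Notch ligand, rose from 16.7 ± 2.18 to 28.1 ± 2.71 CPM (0.75, adjusted p 0.00962), also without overlap. Wnt5a, made mainly by mesenchyme, fell from 22.6 ± 1.06 to 14.3 ± 1.83 CPM (-0.67, adjusted p 0.00808), and Wnt9b from 1.16 ± 0.247 to 0.385 ± 0.114 CPM (-1.62, adjusted p 0.00804). Fzd5, the frizzled receptor of crypt epithelium, rose from 70.5 ± 12.8 to 120 ± 24.5 CPM (0.77, adjusted p 0.0134) beside 150 CPM in WT. These 5 were called in every alternative that gave them an adjusted p, which DESeq2 did not for Wnt9b. Fzd8, among the 15 highest changes by the rule for named genes, rose from 3.94 ± 0.331 to 8.2 ± 1.33 CPM (1.06, adjusted p 0.00322).

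Reg3b, a secreted antibacterial lectin, had the largest fall under the rule for named genes. It was at 13764, 924, 6471 and 821 CPM in Apc and 533, 162, 299.9 and 400 CPM in Apc Eif3h. The groups did not overlap, but the Apc libraries fell into a high and a low pair (log2 fold change -3.98, SE 0.86, adjusted p 0.0186), and the call was lost without Apc Eif3h replicate 2 and without Apc replicate 3 (0.0533 in the latter). Reg3g, its close relative, was at 4263, 320, 1660 and 286 CPM in Apc and 356, 69.6, 95.4 and 139 CPM in Apc Eif3h, with overlap (-3.31, adjusted p 0.0436), and 5 of 8 leave-one-out fits lost it (up to 0.12 without Apc replicate 1). Cfi, the protease that inactivates complement C3b, was steadier, at 32.8, 16.3, 25.6 and 38.5 CPM in Apc and 6.48, 6.13, 6.08 and 5.31 CPM in Apc Eif3h (-2.24, SE 0.24, adjusted p 0.00124), beside 3.74 CPM in WT. Muc4, a membrane mucin, was at 79.3, 57.6, 92.3 and 84.8 CPM in Apc and 19.3, 17.2, 37.7 and 26.8 CPM in Apc Eif3h (-1.64, SE 0.23, adjusted p 0.00295). The Muc4 level in Apc Eif3h also lay below the WT mean of 46.4 CPM.

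Of the other genes with the largest falls, Adora1, the adenosine A1 receptor, went from 7.9 ± 1.2 to 1.71 ± 0.761 CPM (log2 fold change -2.20, adjusted p 0.00171) and Gprin2 from 4.26 ± 0.631 to 0.83 ± 0.585 CPM (-2.32, adjusted p 0.00302). Pdgfrl fell from 4.49 ± 0.92 to 1.25 ± 0.55 CPM (-1.82, adjusted p 0.00472) and Rnase1, a secreted ribonuclease, from 41.7 ± 6.49 to 14.4 ± 5.52 CPM (-1.54, adjusted p 0.00721). Cfi, Muc4, Adora1, Gprin2, Pdgfrl and Rnase1 were called in all 16 alternatives. Gkn3, Thpo, Prss27, C4bp, Pla2g4c, Zan and Hpd were also among the 15 lowest. Their log2 fold changes ran from -2.21 (Gkn3) to -1.55 (Hpd), with adjusted p up to 0.0389 (C4bp). How their calls held in the alternatives is not given. At the other end, Aqp8, a water channel, was at 0, 0.314, 0 and 0.259 CPM in Apc and 2.34, 6.06, 13.8 and 5.27 CPM in Apc Eif3h (5.35, SE 0.72, adjusted p 0.00266), beside 3.03 CPM in WT. Its fold change is against a group near 0 and depends on the prior count. Epop, an Elongin BC partner of Polycomb, rose from 7.73 ± 1.47 to 24.7 ± 11.4 CPM (1.68, adjusted p 0.0107), with Apc Eif3h replicate 3 lowest at 9.31 CPM. Faap24, a protein of the Fanconi anaemia core complex, rose from 9.65 ± 1.46 to 21.7 ± 6.57 CPM (1.17, adjusted p 0.00804). Aqp8, Epop and Faap24 were called in all 16 alternatives.

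Markers of mature cell types gave few calls. Of 53 enterocyte genes 0 were called in either direction, with a median of 0.00157. At an unadjusted p below 0.05 there was 1 in each direction, DESeq2 called 0, limma with sample weights called 1 lower, and edgeR without Apc Eif3h replicate 3 called 1 higher and 2 lower. Apoa1 of the chylomicron stood at 2880 ± 843 and 3039 ± 1111 CPM, and Cdh17, an intestinal cadherin, at 1301 ± 63.5 and 1303 ± 179 CPM. Paneth cell genes had a median of -0.918 with 2 of 19 called lower, against 2.78% over all genes. Without Apc Eif3h replicate 1 there were 8 called lower, and without any other library 0. The median ran from -1.54 to -0.682 in these fits, DESeq2 called 3 lower and limma with sample weights 8. Their summed level was 7426, 9569, 11550 and 5728 CPM in Apc libraries 1 to 4 and 8687, 2552, 3367 and 1649 CPM in Apc Eif3h libraries 1 to 4. Apc Eif3h replicate 1 thus lay inside the Apc range and the other 3 below it. Mptx1, a mucosal pentraxin, fell from 2.74 ± 1.15 to 0.6 ± 0.583 CPM (log2 fold change -2.26, adjusted p 0.0373) and Spink4 from 426 ± 64.6 to 226 ± 91.1 CPM (-0.91, adjusted p 0.0484). Each was lost in 7 of 8 leave-one-out fits (up to 0.13 and 0.122 without Apc replicate 3). Spink4 is on the goblet cell list too, so its call counts in both lists. Lyz1, the Paneth lysozyme, named after its values were seen, stood at 2297 ± 726 and 916 ± 843 CPM (adjusted p 0.215). Goblet cell genes gave 3 of 21 lower (2.78% over all genes) and 0 higher, and the lower count was 0 without Apc replicate 2, Apc replicate 3 or Apc Eif3h replicate 4 and 1 without any other library but Apc Eif3h replicate 1. Enteroendocrine (25) and tuft cell genes (15) gave 0 calls in edgeR and DESeq2, and limma with sample weights called 1 tuft cell gene lower. At an unadjusted p below 0.05 there were 2 enteroendocrine genes higher and 5 tuft cell genes lower.

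Xenobiotic metabolism genes had a median of 0.796 with 4 of 32 called higher and 0 lower, against 4.27% higher over all genes, and 30 of 32 had a fold change above 0. In Apc against WT their median was -1.78. Cyp3a11, a major drug-oxidising cytochrome, was at 27.2, 180, 110 and 156 CPM in Apc and 211, 321, 1118 and 397 CPM in Apc Eif3h, without overlap, beside 1278 CPM in WT (log2 fold change 2.11, adjusted p 0.0403). Its call was lost in 7 of 8 leave-one-out fits (up to 0.121 without Apc replicate 3). Ces2c, a carboxylesterase, rose from 53.7 ± 18.2 to 123 ± 42.8 CPM (1.19, adjusted p 0.0147, and 0.0599 without Apc replicate 3). The highest level of both among the 4 Apc Eif3h libraries was in replicate 3, the library with the most remaining Eif3h. Replicate 3 also held the highest summed level of enterocyte genes, at 55820 CPM. Replicates 1, 2 and 4 held 43160, 38370 and 44190 CPM of them. The part of either in the levels of Cyp3a11 and Ces2c was not tested. The xenobiotic list had 0 calls without Apc replicate 3 and 10 without Apc Eif3h replicate 1. It had 1 without Apc replicate 1, Apc replicate 4, Apc Eif3h replicate 2 or Apc Eif3h replicate 4. In the fit of the 8 libraries alone it had 1.

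Other metabolic lists held few calls. Cholesterol synthesis gave 3 of 25 lower and 0 higher, with a median of -0.2, against 2.78% called lower over all genes. The count was 1 without Apc replicate 2, Apc replicate 3 or Apc Eif3h replicate 4 and 2 without any other library. Fdft1, squalene synthase, fell from 47.3 ± 4.03 to 35.2 ± 2.17 CPM (log2 fold change -0.42, adjusted p 0.0107), called in all 16 alternatives. Nuclear respiratory chain genes (54) and mitochondrially encoded genes (13) gave 0 calls, with medians of 0.143 and -0.0815. At an unadjusted p below 0.05 there were 9 nuclear genes higher and 1 mitochondrially encoded gene lower, DESeq2 called 3 nuclear genes higher, and limma with sample weights called 0 in both lists.

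Markers of immune cells, fibroblasts and smooth muscle gave few calls, against 4.27% called higher and 2.78% called lower over all genes. B and plasma cell genes (14 tested of 21) had 0 calls, and their summed level was 3577 to 9132 CPM in Apc and 3573 to 7931 CPM in Apc Eif3h, with the highest of the latter in replicate 2. T and intraepithelial lymphocyte genes (24 of 26) ran from 121.5 to 194.2 CPM and from 128.9 to 260.1 CPM, macrophage and neutrophil genes (18 of 24) from 445.2 to 531.9 CPM and from 393 to 645.2 CPM, and both had 0 calls in edgeR. At an unadjusted p below 0.05 there were 5 B cell genes higher, 1 T cell gene higher and 2 macrophage genes lower, and DESeq2 called 0, 0 and 1 of them, as did limma with sample weights. Fibroblast and matrix genes (23) had a median of -0.409, with 22 of 23 below 0 and 1 called, Col6a3, from 96 ± 11.2 to 67.1 ± 3.49 CPM (adjusted p 0.044, lost in 7 of 8 leave-one-out fits, up to 0.132 without Apc replicate 3). Their summed level was 1561 to 2375 CPM in Apc and 1058 to 1477 CPM in Apc Eif3h, so the groups did not overlap. At an unadjusted p below 0.05, 10 of the 23 were lower and 0 higher. DESeq2 called 3 of them lower and limma with sample weights 4. Of 15 smooth muscle genes 1 was called lower, Cald1, an actin-binding protein, from 124 ± 9.17 to 96.1 ± 5.23 CPM (-0.37, adjusted p 0.0289), a call lost in 6 of 8 leave-one-out fits (up to 0.0775 without Apc replicate 4). Col1a1, the main fibrillar collagen, stood at 154 ± 47.9 and 103 ± 18 CPM (adjusted p 0.176). The lower fibroblast level and the fall of Wnt5a share a direction between groups. Within Apc, replicate 4 held the most of both (2375 CPM summed and 24.2 CPM of Wnt5a). Within Apc Eif3h, replicate 2 held the highest fibroblast sum (1477 CPM) but the lowest Wnt5a (12.7 CPM). The part of the fibroblast level in the Wnt5a result was not tested. Cxcl10, an interferon-induced chemokine, was the 1 of 42 interferon-stimulated genes called, from 4.6 ± 0.774 to 16.9 ± 7.48 CPM (1.87, adjusted p 0.0188, with the call lost without Apc replicate 3, at 0.0634, and without Apc replicate 4).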

How the data were processed

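The deposited table holds raw read counts per gene for 12 libraries made with a TruSeq kit and sequenced on a NextSeq 500. The submitters' processing notes name HISAT2 2.1.0, featureCounts 1.6.4, Trim Galore 0.6.4 and FastQC 0.11.8, and the build GRCm38. Which annotation release and strand option were used, and how multi-mapping reads were counted, is not given in the sources used here. GENCODE M21 named 55240 of 55421 gene identifiers.

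Genes were filtered with edgeR's filterByExpr, scaled by TMM and tested with edgeR's quasi-likelihood test (edgeR 4.0.16, R 4.3.3) on 3 groups of 4, with Benjamini-Hochberg adjustment over all 17394 genes. Each SE was derived from the F statistic, as |log2 fold change| over its root. CPM of genes are after TMM, and summed CPM of lists are of library totals. List scores average centred log2 CPM with a prior count of 2. The steps were tested on simulated data. DESeq2 1.42.0 and limma 3.58.1 were alternatives, beside other scalings, no filter, fewer libraries, a sex term, the replicate block and leaving out each library.

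Named genes were the 15 highest and 15 lowest non-overlapping calls with a mean log2 CPM of at least 1, up to 4 called members per list and direction with the smallest p, all members of counts of 5 or fewer, up to 2 abundant members of lists without calls, eIF3 subunits and tissue markers. Members and lists were chosen with earlier results of these data known.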

Additional observations from a re-analysis of the deposited data

Results flagged for a closer look

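In each group of 4, the highest or lowest library was singled out where its gap to the next library was above the 95% critical value of Dixon's ratio, which chance gives in about 1 in 20 sets. Of 296 sets examined, 18 passed, near that share. Apc Eif3h replicate 2 was the highest for Ighm (462 CPM), Cd79a (83.8 CPM), Ptprc (163 CPM) and Cald1 (104 CPM), and for the summed levels of MHC class II presentation (2710 CPM), macrophages and neutrophils (645 CPM) and endothelium (334 CPM). Apc Eif3h replicate 3 was the highest for Mycl (71.5 CPM) and adipocyte genes (83 CPM summed) and the lowest for Fzd8 (6.2 CPM).

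Among the Apc libraries, replicate 1 was the highest for Xist (701 CPM), as the only library of the group labelled female, and the lowest for Col6a3 (79.4 CPM). Replicate 2 was the lowest for Fzd8 (3.45 CPM) and Nusap1 (38.7 CPM). Replicate 3 was the highest for Mptx1 (4.46 CPM) and MHC class II presentation (1870 CPM summed) and the lowest for pancreatic acinar genes (10.9 CPM summed). The haemoglobin genes were highest, at 39.5 CPM summed, in replicate 4.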

How the results depend on the processing

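The 1226 calls (743 higher, 483 lower) became 817 (306 lower) with no filter on low counts and 2196 (1283 higher, 913 lower) with limma and sample weights. With library totals only, 485 were higher, or 49.8% of calls. Leaving out each library gave 406 to 1767 calls, 242 to 1152 higher and 164 to 615 lower. ATF4 list genes called higher numbered 10 in DESeq2 and in limma with sample weights, and 3 to 10 in the leave-one-out fits. Wnt targets called lower numbered 8 in DESeq2, 10 in limma with sample weights and 1 to 10 in the leave-one-out fits. Stem cell markers called lower ran from 3 to 7, ribosomal proteins called higher from 34 to 77, and p53 targets called higher from 0 to 7. The p53 count was 2 with library totals only, 3 with no filter, 2 with 8 libraries in the fit and 3 with sex as a term. Under the other alternatives these counts, and that of snoRNA host genes, stayed within 1.5 times of those reported. Of 70 named genes called, 39 kept the call in every alternative that gave an adjusted p, 0 changed direction, and 41 kept it without Apc replicate 3. The cause of these differences was not tested.

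Whether the replicate numbers pair the samples is not stated in the labels. Deviations of same-numbered Apc and Apc Eif3h libraries correlated at 0.236, -0.0283, 0.00486 and 0.123 for numbers 1 to 4. Only numbers 1 and 4 correlated best with their own. With 1 correlation per number, these values cannot decide whether a number marks a shared litter or batch. With the replicate block 993 genes were called (594 higher, 399 lower), of them 63 ribosomal protein genes, and 64 of the 70 named genes kept the call. Counts near 0 CPM, as for Aqp8 and Wnt9b, limit the precision of their fold changes.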
